A study of Caenorhabditis elegans with 4 samples.

Results

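The 616 LIN-15B binding regions on chromosome II of Caenorhabditis elegans are described here. They are all the lines of a list of 4141 regions that name chromosome II. No q-value entered that rule, but the chromosome was chosen with earlier results of these data known. The list came from chromatin immunoprecipitation and sequencing (ChIP-seq) of whole hermaphrodites at the L3 larval stage, grown at 20 °C. All worms were of strain OP184, an unc119(ed3) mutant carrying wgIs184, a transgene brought in by bombardment that holds lin-15B::TY1 EGFP FLAG and a rescuing unc119 copy. Immunoprecipitated DNA (2 samples, goat antibody against GFP) was set against input DNA (2 samples) of the same strain, and no untagged strain was analysed here. The list gives 1 q-value per region for the whole experiment and no value for either replicate, so no spread between replicates and no read depth could be computed. Intervals and p-values below cover counting error only, and they treat regions as independent although regions cluster.

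LIN-15B carries a THAP-type domain and belongs to the synMuv B group of chromatin regulators, which limit vulval induction and hold germline genes off in the soma. The autosomes of C. elegans have no single centromere. They are instead divided into a central part, rich in conserved and widely expressed genes and low in recombination, and 2 arms, which hold more repeats, more marks of silent chromatin and many young gene families. Where along a chromosome a regulator binds can therefore be read against this division.

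Regions on II reached from base 18805 to base 15263369 of WormBase WS180, a span of 15.2 Mb, and covered 249 kb or 1.64% of it. The span was divided into 3 sections of equal length, 5.08 Mb each, with borders at 5.10 and 10.2 Mb. These stand in for the left arm, the centre and the right arm, and are not the borders of the arms known from genetics. The gene at each position was not analysed here. Strength below is -log10 of the authors' q-value for the region, which depends on the number of reads as well as on enrichment and is no measure of occupancy. On II it ran from 2.00 to 131 with a median of 7.18, and 248 regions (40.3%) had a q under 1e-10, where 36.1% of the whole list did. A q under 0.001 was reached by 492 (79.9%), against 78.1% of the whole list.

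The left section was sparsely bound. It held 139 regions, or 27.4 per Mb (95% exact Poisson interval 23.0 to 32.3), against 234 in the centre, 46.05 per Mb (40.3 to 52.3), and 243 in the right section, 47.8 per Mb (42.0 to 54.2). Centre and right section overlapped in their intervals, and the left section lay below both. It thus held 22.6% of the regions of II (95% exact interval 19.3% to 26.1%) on 33.3% of the span, 0.677 times its share (exact binomial test, two-sided, p = 5.3e-09). Against the right section alone the ratio of numbers was 0.572 (0.461 to 0.707). Low density was thus found on 1 side of the chromosome. Sections and tests were chosen with earlier results of these data known, so the p-value and the ratios are no independent support.

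**Figure D1:**
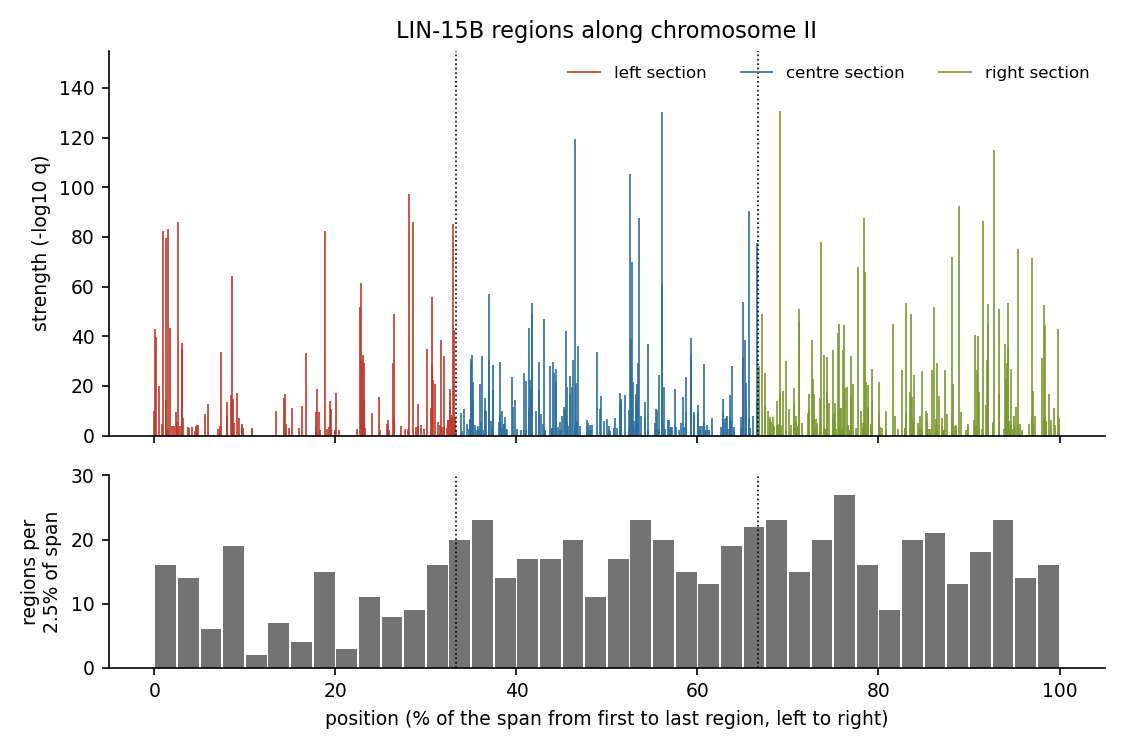
Strength (-log10 of the authors' q-value) of each of the 616 regions on chromosome II, above, and the number of regions per 2.5% of the span, below, against position as a share of the span; dotted lines mark the section borders. Bars of the left section are few between about 10% and 30% of the span, while strong regions stand at the left end and in all sections.

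Low density was not spread evenly within the left section. The first 500 kb held 22 regions, which is 45.7 per Mb, close to the density of centre and right section. The remaining 4.60 Mb of the left section held 117, or 25.4 per Mb. The window from 0.5 to 1 Mb had 10 regions and that from 1 to 1.5 Mb had 20. From 1.5 to 4.5 Mb there were 60 regions in all, and from 4.5 to 5 Mb again 20. The emptiest windows of 500 kb on the chromosome were 1.5 to 2 Mb with 5 regions, 3 to 3.5 Mb with 6 and 2 to 2.5 Mb with 9, and all 3 lay in the left section. The fullest were 8 to 8.5 Mb with 31, 14 to 14.5 Mb with 30 and 11.5 to 12 Mb with 29. Over its 10 windows the left section ranged from 5 to 22 regions with a median of 12.5. The centre ranged from 18 to 31 with a median of 23.5, and the right section from 15 to 30 with a median of 25. The groups overlapped only through the fuller windows of the left section, at 0 to 0.5, 1 to 1.5, 2.5 to 3 and 4.5 to 5 Mb.

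At 500 kb, windows of the left section varied more among themselves than those of the other sections of II. The ratio of variance to mean was 2.74 over its 10 windows, 0.735 over the 10 of the centre and 1.30 over the 10 complete windows of the right section. At 1 Mb this did not hold, with ratios of 0.958 in the left section, 0.886 in the centre and 1.08 in the right section over 5 windows each. Nor was a high ratio at 500 kb particular to the left section of II. It was higher in the left section of III (3.01) and the right section of V (5.50). In the left and right sections of IV it was 2.35 and 2.22. At 1 Mb the 5 windows of the left section held 20 to 32 regions, against 37 to 53 in the centre and 38 to 57 in the right section, with no overlap. Of 51 windows of 100 kb in the left section, 7 held no region, against 1 of 51 in the centre and 0 of 50 in the right section. The fullest windows of 100 kb lay at 10.5 to 10.6 Mb, with 13 regions, and at 5.3 to 5.4, 8 to 8.1 and 8.1 to 8.2 Mb, with 10 each.

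Much of the left section was taken up by long stretches without a region. On II, 21 stretches between neighbouring regions exceeded 100 kb, 12 of them in the left section, 4 in the centre and 5 in the right section. They took up 39.8% of the left section, against 9.33% of the centre and 11.1% of the right section. Outside them the left section held 45.4 regions per Mb, the centre 50.8 and the right section 53.8. These last densities are a description only, since taking out the longest stretches raises the density most where they are most frequent. The median stretch was 19.05 kb in the left section, 13.5 kb in the centre and 10.7 kb in the right section.

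Of the 10 longest stretches, 8 lay in the left section. The longest ran from 1663854 to 2058980, 395 kb, and the next from 3130322 to 3428210, 298 kb. Further ones in the left section were 913613 to 1084980 (171 kb), 2565323 to 2734768 (169 kb), 1509533 to 1661421 (152 kb), 2059593 to 2195569 (136 kb), 3683127 to 3808096 (125 kb) and 4050011 to 4173918 (124 kb). The remaining 2 lay at 9416939 to 9557393 in the centre (140 kb) and at 14635410 to 14754159 in the right section (118.75 kb). Together the 10 covered 1.83 Mb. The regions that bound them were mostly weak, with a median strength of 3.65 over 19 regions, against 7.18 for all regions of II. A q under 1e-10 was reached by 3 of the 19, where 40.3% of II regions and 36.1% of the whole list reached it.

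The emptiest part of the chromosome was made of 3 of these stretches in a row. After a group of 5 regions between 1496736 and 1509532, none stronger than 4.62, came 152 kb without a region. A pair of weak regions followed at 1661422 to 1661623 and 1663592 to 1663853, with strengths of 2.79 and 3.15. After them came 395 kb without a region. A single region of 612 bp at 2058981 to 2059592, with strength 9.99, then stood 136 kb from its nearest neighbour, the most isolated region of II. If regions with q under 1e-10 alone are counted, nothing lay between 1402560 and 2204092, a length of 802 kb that held 10 weaker regions. The median distance between such regions on II was 32.7 kb. The longest stretch of this kind was 304 kb on III, 692 kb on IV and 892 kb on V. A stretch without a region fell short of the authors' threshold of detection and is not shown to be unbound.

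**Figure D2:**
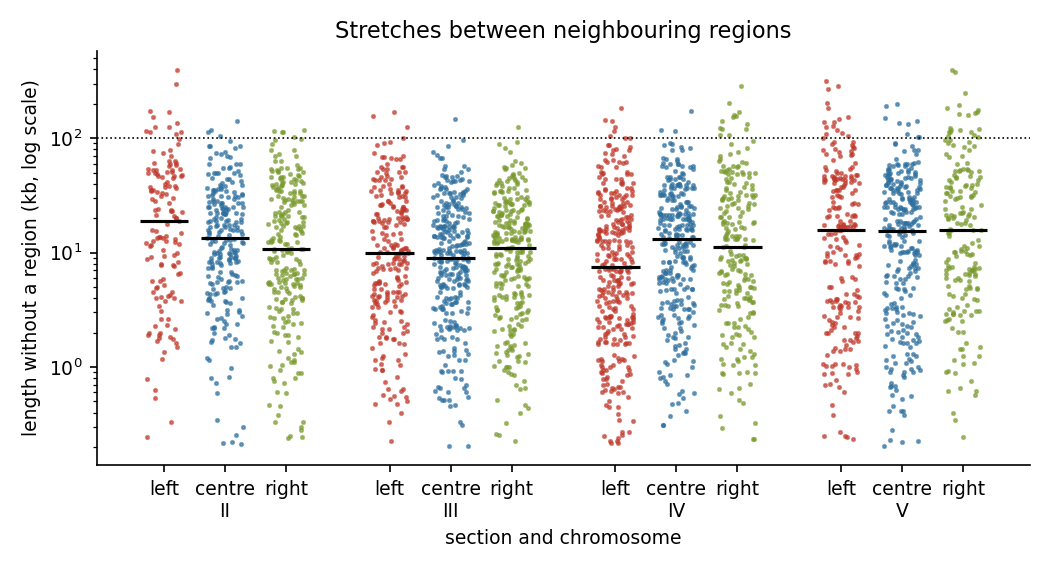
Length of each stretch between neighbouring regions (kb, log scale) by section of chromosomes II, III, IV and V; black bars are medians and the dotted line is at 100 kb. The left section of II has the 2 longest stretches of that chromosome, 395 and 298 kb, and 12 points above the line.

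No difference in strength between the left section and the rest of II was called. Of its 139 regions 54 had a q under 1e-10, 38.8% (95% exact interval 30.7% to 47.5%), against 194 of 477 in centre and right section, 40.7% (36.2% to 45.2%). The difference was -1.82 percentage points (95% Newcombe interval -10.7 to 7.53; two-sided Fisher's exact test, p = 0.77), so a difference of several points in either direction cannot be told from none. Median strength was 6.42 in the left section, 7.62 in the centre and 7.08 in the right section, with middle ranges from 3.20 to 17.1, from 3.25 to 19.4 and from 3.52 to 19.99. At q under 1e-50, reached by 6.54% of the whole list, the counts were 12 of 139 in the left section and 29 of 477 in the rest of II, 8.63% against 6.08%. Per length these made 2.36 such regions per Mb in the left section, 2.16 in the centre and 3.54 in the right section. Of the 5 regions of II with q under 1e-100 (0.812%, where 1.09% of the whole list reached it), 3 lay in the centre, 2 in the right section and 0 in the left section.

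The 20 strongest regions of II had strengths of at least 77.6, and all stood among the 101 strongest of the whole list. The strongest lay at 10563215 to 10563754 in the right section (strength 131) and at 8561128 to 8561599 (130) and 7104873 to 7105373 (119.3) in the centre. Next came 14154212 to 14154702 in the right section (115) and 8028070 to 8028985 in the centre (106). The left section held 8 of the 20, the centre 6 and the right section 6. These shares describe a list ranked by strength and were not tested.

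Of the 20 strongest regions of II, 8 lay in the left section, 4 of them within its first 500 kb. Within the first 500 kb lay 155840 to 156330 (strength 82.3), 216550 to 216980 (79.7), 255071 to 255578 (83.3) and 410837 to 411268 (85.9). Here 11 of 22 regions had a q under 1e-10, with a median strength of 12.1, against 43 of 117 and a median of 6.34 in the rest of the left section. At the inner end lay 5055092 to 5055596 (85.2). The strongest region of the section, 4299189 to 4299636 (97.4), and 4376478 to 4377225 (86.2) lay within the sparse part from 1.5 to 4.5 Mb. The region at 4376478 to 4377225 stood 48.1 kb from its nearest neighbour, the largest such distance among the 20. In the same sparse part lay 2889178 to 2889694 (82.3), 31.6 kb from its nearest neighbour. The last 2 of the 10 strongest in the section were 1320409 to 1320870 (64.3) and 3502571 to 3503062 (61.4). Both had other regions of q under 1e-10 nearby. From 1.3 to 1.4 Mb 4 of the 7 regions passed that limit, and from 3.5 to 3.6 Mb 6 of the 7. Of all regions of II 40.3% passed it, and these small counts were not tested. Strong regions were thus also found in the sparse section, both singly and in groups.

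Among the other strong regions, those of the centre were 10033305 to 10033771 (90.5), 8184892 to 8185349 (87.6) and 10174237 to 10174718 (77.6). Those of the right section were 13575386 to 13575876 (92.4), 11967356 to 11967976 (87.5), 13976066 to 13976503 (86.6) and 11238831 to 11239309 (77.9). The 20 regions were 431 to 916 bp wide and had their nearest neighbour at 1.05 to 48.1 kb, with a median of 6.48 kb, about that of all regions of II (6.15 kb). The weakest regions of II, by contrast, lay just inside the list's limit of q under 0.01. They were 701460 to 701727 and 3055555 to 3055810 in the left section, 5200957 to 5201332 and 7684488 to 7684728 in the centre, and 10300372 to 10300555 in the right section, with strengths from 2.00 to 2.02.

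Regions of II were narrow, with a median width of 371 bp and quartiles at 309 and 459 bp. The median was 367 bp in the left section, 377 bp in the centre and 371 bp in the right section. More than 500 bp were spanned by 21 of 139 regions of the left section, 15.1% (9.60% to 22.2%), and by 94 of 477 in the rest of II, 19.7% (16.2% to 23.6%), where 17.8% of the whole list were so wide. The difference of -4.60 percentage points was not called (p = 0.27 in the two-sided Fisher's exact test, Newcombe interval -10.9 to 3.05). Regions covered 1.07% of the left section, against 1.90% of the centre and 1.93% of the right section.

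Width and strength went together up to a point. None of the 141 regions under 300 bp had a q under 1e-10, and their median strength was 2.67. Of 243 regions of 300 to under 400 bp, 85 did, with a median of 7.33. Of 117 regions of 400 to under 500 bp, 86 did, with a median of 24.3. Among the 115 regions of 500 bp or more the median was lower, 16.8, and 77 had a q under 1e-10. Over the 616 regions, which share 1 peak calling, the Spearman correlation of width and strength was 0.695 and the Pearson correlation 0.376, given as a description. Both values come from the same call of the same reads.

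Regions over 1000 bp numbered 6 on II, or 0.974%, against 1.40% of the whole list. The widest, at 11634001 to 11636065 in the right section, spanned 2065 bp with a strength of 44.7. The others lay at 5543269 to 5544365 (1097 bp, strength 31.9), 1134426 to 1135505 (1080 bp, 33.5), 1346281 to 1347308 (1028 bp, 14.6), 9061133 to 9062137 (1005 bp, 8.81) and 4855430 to 4856431 (1002 bp, 3.47). The left section held 3 of these 6. Next in width came 11749257 to 11750247 (991 bp, strength 32.1), 12677769 to 12678729 (961 bp, 53.4), 8137353 to 8138300 (948 bp, 13.9) and 8028070 to 8028985 (916 bp, 106), the only one of the 10 widest among the 20 strongest. The narrowest region of II, and the only one under 50 bp, was 254261 to 254281 in the left section, 21 bp wide with a strength of 2.11. It lay 1.05 kb from the strong region at 255071 to 255578.

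**Figure D3:**
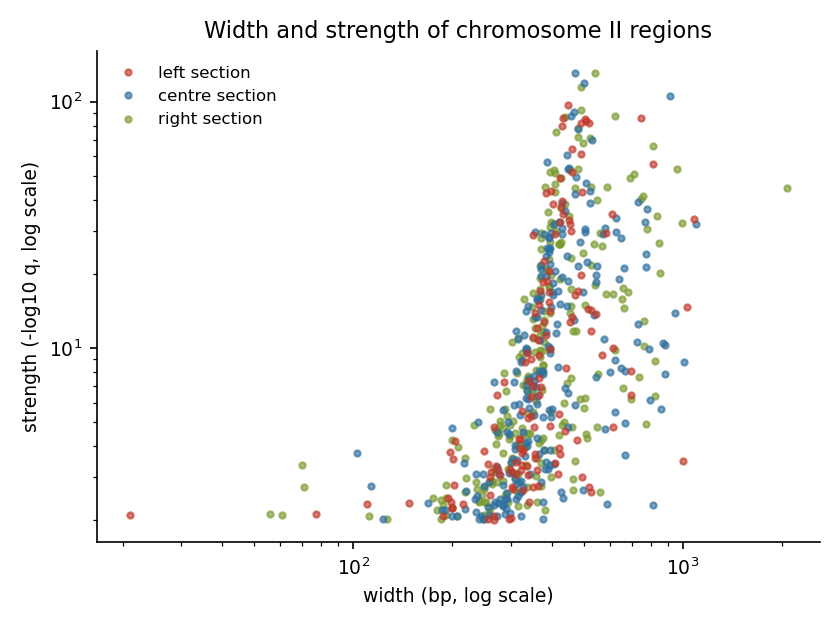
Width (bp, log scale) against strength (-log10 of the authors' q-value, log scale) of the 616 regions of chromosome II, coloured by section. Strength climbs steeply between 300 and 500 bp, while the regions of 500 bp or more spread from weak to strong, and the 3 sections lie over each other.

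At a distance of 5 kb most regions of II stood alone. This was not compared with what their mean spacing of 24.8 kb would give. With midpoints up to 5 kb apart counted as joined, 357 regions had no partner, and the rest formed 82 pairs, 20 groups of 3, 5 groups of 4 and 3 groups of 5. One of the groups of 5 was the weak one at 1496736 to 1509532. The others held the 2 strongest regions of the chromosome. At 10548694 to 10563754 the strongest region of II had 4 neighbours with strengths from 3.47 to 17.4, within the fullest 100 kb of the chromosome. At 8561128 to 8577946 the second strongest had neighbours of strength 6.97, 60.5, 2.86 and 4.99. Strong and weak regions thus stood side by side within a few kb.

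Neighbouring midpoints lay within 2 kb in 53 of 615 pairs, 8.62% (6.52% to 11.1%), where 11.0% of all neighbouring pairs of the list did. Of the pairs in the left section 8 of 139 were so close, 5.76% (2.52% to 11.0%), against 16 of 233 in the centre, 6.87% (3.98% to 10.9%), and 29 of 243 in the right section, 11.9% (8.14% to 16.7%). These intervals overlap. Of the 53 close pairs, 11 had both members above the median strength of the whole list, 20 had both at or below it and 22 had 1 of each. The stronger member had a median strength of 8.50 and the weaker one of 3.24. Regions with a neighbour within 2 kb included 30 of 102 with a q under 1e-10, 29.4%. The share was 44.6% at 2 to 5 kb, 48.5% at 5 to 10 kb, 37.6% at 10 to 50 kb and 33.3% (6 of 18) over 50 kb. Over all regions of II it was 40.3%, and these shares were not tested against each other.

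Chromosomes III, IV and V, which have most of the other autosomal regions, were divided in the same way. The left section held 22.6% of the regions on II, against 28.8% on III (233 of 809), 39.1% on IV (324 of 829) and 31.4% on V (217 of 691). The differences were -6.24 percentage points from III (95% Newcombe interval -10.7 to -1.64), -16.5 from IV (-21.1 to -11.8) and -8.84 from V (-13.6 to -4.02). The two-sided Fisher's exact test gave, after Benjamini-Hochberg adjustment over the 3 comparisons, an adjusted p of 0.0088, 6.5e-11 and 0.00057. The difference from III was not called with outer sections of 25% of the span (-2.30) or among the 2070 regions with the smaller q (-2.25), and neither it (-2.82) nor that from V (-7.50) was called among the 1000 with the smallest q. That from IV was called in all 8 alternatives tried. These comparisons too were chosen with earlier results of these data known. On IV and V the sparsest section was the right one, with 221 and 188 regions, so matching by side did not set sparsest against sparsest.

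**Figure D4:**
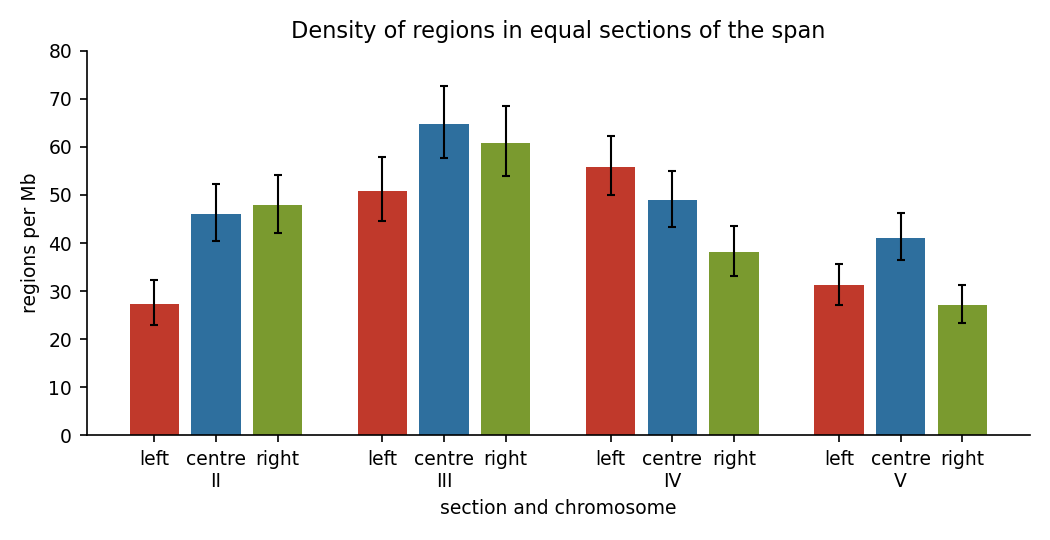
Regions per Mb in the left, centre and right section of chromosomes II, III, IV and V, with 95% exact Poisson intervals as error bars. The left section of II, 27.4 per Mb, stands with the right (27.0) and left (31.2) sections of V at the low end of the 12 sections, while centre and right of II are alike.

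In density the left section of II was not alone. Among the 12 sections it came second from the bottom, between the right section of V, 27.0 per Mb (23.3 to 31.2), and the left section of V, 31.2 per Mb (27.2 to 35.6), whose intervals both overlap its own. The next, the right section of IV, had 38.1 per Mb (33.2 to 43.4). Long stretches took up similar shares of these sections: 39.8% of the left section of II against 48.4% and 36.4% of the right and left sections of V and 34.1% of the right section of IV. On III no section exceeded 12.1%. Over the whole chromosome, stretches above 100 kb numbered 21 on II, against 6 on III, 23 on IV and 44 on V, and made up 20.1% of the span of II, against 6.00%, 18.9% and 34.3%. The longest was 395 kb on II, 169 kb on III, 287 kb on IV and 397 kb on V.

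**Figure D5:**
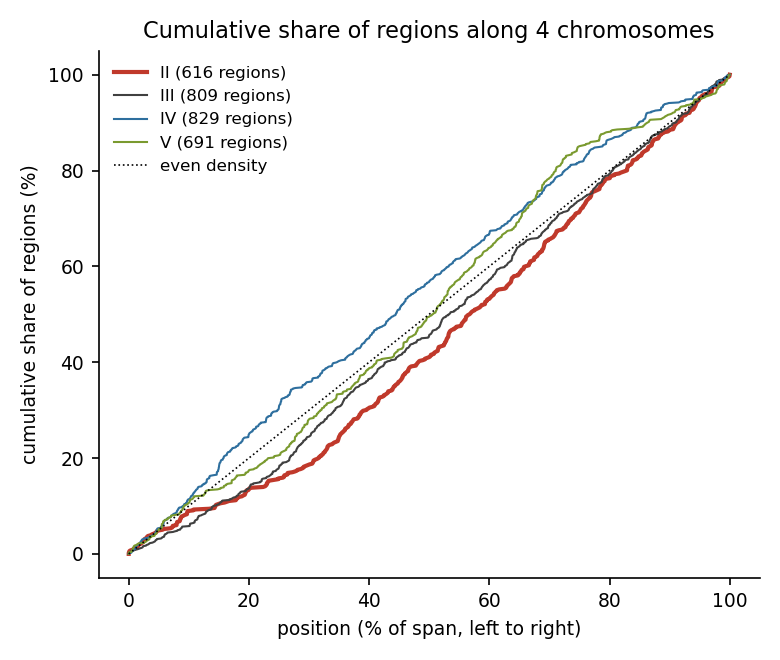
Cumulative share of regions (%) against position (% of span, left to right) for chromosomes II, III, IV and V, with the dotted line of even density. The curve of II runs below the others from about 25% of the span to beyond the middle, with 18.5% of its regions in the first 30% of the span, against 24.4% on III, 35.8% on IV and 28.1% on V.

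The regions of II lay towards the right as a whole. Their median position was at 56.8% of the span, against 53.3% on III, 44.4% on IV and 50.7% on V. The first 10% of the span held 8.93% of the regions of II, close to an even share, and the first 30% held 18.5%. At 20% of the span II (13.5%) and III (13.6%) were alike, and at 30% they were apart (18.5% and 24.4%).

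No difference in the share of strong regions was called at that threshold between II and the other 3 chromosomes. Regions with a q under 1e-10 made up 40.3% on II (36.4% to 44.3%), against 39.8% on III, 35.5% on IV and 34.7% on V. The differences of 0.458, 4.80 and 5.53 percentage points were not called (Newcombe intervals -4.65 to 5.59, -0.249 to 9.85 and 0.275 to 10.8; two-sided Fisher's exact test adjusted over 3 comparisons, p = 0.87, 0.10 and 0.10). With q under 1e-20 the difference from V, 5.92 percentage points, was called (Fisher's exact test, adjusted p = 0.028). Regions over 500 bp made up 18.7% on II, against 14.8% on III, 16.0% on IV and 16.4% on V, and no difference was called (Fisher's exact test, two-sided, adjusted p between 0.18 and 0.27). With the median width of the list, 367 bp, as the limit instead, II had more wide regions than IV, by 8.45 percentage points, and than V, by 7.06 (Fisher's exact test, adjusted p = 0.0050 and 0.016).

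Close pairs were fewer on II than on the other 3 chromosomes. Midpoints within 2 kb made up 8.62% of neighbouring pairs on II, against 12.005% on III, 14.3% on IV and 13.2% on V (Fisher's exact test, two-sided, adjusted over 3 chromosomes, p = 0.045, 0.0029 and 0.015). A fixed distance takes no account of density, and regions were on average 24.8 kb apart on II, against 17.0 kb on III, 21.0 kb on IV and 30.2 kb on V. The shares did not follow the order of these mean spacings, which take in the long stretches without a region. What part density had in the shares was not tested. When the distance was scaled by mean spacing, a choice made after seeing the data, the share stayed 8.62% on II, against 6.44% on III, 11.6% on IV and 15.9% on V. Then the difference from III turned to 2.18 percentage points (Fisher's exact test, adjusted p = 0.13) and that from IV, -2.98, was not called (adjusted p = 0.10), while that from V was -7.32 (adjusted p = 0.00022). Among the 2070 regions with the smaller q none of the 3 differences was called, and that from V was -0.0519. With other fixed distances the difference from V was not called within 5 kb (-4.76, Fisher's exact test, adjusted p = 0.060) and turned to 0.703 within 10 kb (adjusted p = 0.82), while those from III and IV were called at both. The result against each of the 3 chromosomes thus depended on how close pairs were defined or on which regions were counted.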

How the data were processed

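ChIP-seq was done on 2 immunoprecipitated and 2 input samples. Per the labels' protocols, worms were fixed with 2% formaldehyde, stopped by 100 mM Tris, and chromatin was sonicated. The authors deposited 1 combined list with a q-value per region, called by PeakSeq on WormBase WS180 per the file headers. Not given in the sources used here are the aligner, the read filters, the PeakSeq settings and how both replicates became 1 list. No reads, fold enrichments, summits or sequences of WS180 were used.

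Regions were placed by midpoint, with spans from first to last region. Shares were compared by exact binomial and Fisher's exact tests with Clopper-Pearson, Poisson and Newcombe intervals (95%). Python 3.11.15 was used with scipy 1.17.1, pandas 2.3.3 and numpy 2.4.6, and the threshold was an adjusted p of 0.05. The tests were first tried on simulated lists. Those without a planted effect placed regions independently, so the trials do not show how the tests behave when regions cluster. Named were the 20 strongest regions of II, the 10 strongest of its left section, the 10 widest, the 5 weakest, the 10 longest stretches and the extreme windows; other named regions, such as the group at 1496736, were chosen after their values were seen. The members, sections, tests and rules were chosen with earlier results of these data known, so low density on the left of II is no independent finding.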

Additional observations from a re-analysis of the deposited data

Results flagged for a closer look

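The share of regions in the left section differed between chromosome II and each of the 3 chromosomes tested, and is flagged for that reason. The difference, II minus the other chromosome, was -6.24 percentage points for III (Fisher's exact test, two-sided, adjusted p = 0.0088), -16.5 for IV (adjusted p = 6.5e-11) and -8.84 for V (adjusted p = 0.00057). Sections were matched by side, not by density. The left section was the densest of IV (55.8 regions per Mb), while the sparsest of IV and of V was the right one. Those right sections held 221 of 829 and 188 of 691 regions, against 139 of 616 in the left section of II. Counts per 500 kb varied within the left section of II with a ratio of variance to mean of 2.74, and the tests assume a ratio near that of independent regions. How far this moves the p-values was not tested. The comparisons were chosen with earlier results of these data known, so their p-values are no independent support.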

How the results depend on the processing

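No paired analysis was possible because 1 combined q-value is all the list gives per region; for that reason no replicate could be left out either. Of 96 alternatives 75 kept direction and side of the threshold, which includes values called neither before nor after. The left section's share (0.677 times its share of span) was called in all 7, at 0.624 to 0.692, and left against right (0.572) in all 8, at 0.493 to 0.598. These alternatives cut the same list anew and are no independent checks. With the span from base 1 the count stayed at 139 of 616, and with regions of at least 50 bp it was 138 of 615. The following are differences in percentage points, II minus the other chromosome or left section minus the rest of II; the cause of their changes was not tested. The left share was no longer called against III with outer sections of 25% (-2.30), among the 2070 regions with the smaller q (-2.25) and among the 1000 with the smallest q (-2.82), nor against V among those 1000 (-7.50). Close pairs were not called among the 2070 against III (-2.87), IV (-1.34) or V (-0.0519), nor against V within 5 kb (-4.76), and turned to 0.703 against V within 10 kb. Scaled by mean spacing, chosen after seeing the data, they turned to 2.18 against III and were not called against IV (-2.98). Strong regions were called against V at q under 1e-20 (5.92), and at 1e-50 uncalled values turned to 2.55 for the left section and -1.75 against III. Over 1000 bp, uncalled widths turned to 1.53 for the left section, -0.474 against IV and -0.0390 against V; over 367 bp, II was called above IV (8.45) and V (7.06). Stretches over 100 kb on II numbered 41 among the stronger 2070, where fewer regions remain, and those over 200 kb in the full list numbered 2. Read depth is unknown, so positions not listed may still be bound.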

Other observations

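Neighbouring regions of II were hardly alike in strength: over 615 neighbouring pairs, which share regions, the Spearman correlation of their strengths was 0.0695 and the Pearson correlation 0.0307. Regions with no neighbour within 50 kb numbered 18 on II, 10 of them in the left section, 5 in the centre and 3 in the right section. They made up 2.92% of the regions on II, against 0.247% on III, 1.33% on IV and 3.33% on V. In the left section of II the share was 7.19%, near the 7.45% of the right section of V. Of the 18 on II, 6 had a q under 1e-10, 33.3%, against 40.3% of all regions of II. Their median width was 336 bp, against 371 bp. Among the 2070 regions of the list with the smaller q, 329 lay on II, and the longest stretch between them, 1437927 to 2058980, measured 621 kb and lay in the left section. Of the 41 stretches over 100 kb between these 329 regions, 16 lay in the left section, against 12 of 21 in the full list. A second long stretch without a region of q under 1e-10 ran from 484882 to 913232, 428 kb with 9 weaker regions inside. It began just inside the end of the first 500 kb, where 11 of 22 regions had such a q, against 40.3% on II.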
